A study of Mus musculus with 2 samples.

Results

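The promoters described here are CpG-rich, carry H3K27me3 without H3K4me3 according to the study's gene table, and belong to genes whose symbols lack the prefixes set for developmental transcription factors, ion channels, neurotransmitter receptors and classical adhesion molecules, so some homeobox and other factors remain among them. They were chosen by the mark class given in that table and by the start of the gene symbol. Of the 1999 promoters in the rows supplied, 636 were of the H3K27me3-only class, and 468 of these were members. The other 67 developmental transcription factor promoters, the other 101 channel, receptor and adhesion promoters and the 1363 H3K4me3-only promoters of the same rows served for comparison.

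The study mapped histone H2A carrying ubiquitin (uH2A) by ChIP-Seq in mouse embryonic fibroblasts (MEFs) to obtain a profile of the Bmi1-dependent mark across the genome. There was 1 library from Bmi1 wild-type MEFs and 1 from Bmi1 null MEFs. Both lines were derived from C57BL/6 littermates and immortalized with TBX2, each genotype is a single line, and the E6C5 antibody was used for both. Wild-type tags numbered 6114925 and null tags 8020248, and with 1 library each a line, a library and a genotype cannot be told apart, and no difference between the libraries has a replicate check.

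Polycomb repressive complex PRC1 attaches ubiquitin to histone H2A through its Ring1 subunits, and Bmi1 is a partner subunit that stimulates this activity. PRC2 methylates lysine of histone H3 to give H3K27me3, which PRC1 complexes with a chromodomain subunit can bind. Polycomb targets in fibroblasts are typically genes of other lineages, such as neuronal, epithelial and muscle genes, that are kept silent.

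The members were spread over peptide hormones and their receptors, secreted signals, homeobox and other transcription factors, synaptic, epithelial, muscle and blood genes. Promoter sequence, from 250 bases before to 50 bases after a gene's start, is shown for members with a single start in the RefSeq table of build GRCm38.p6. The first set has a deposited uH2A peak within 1 kb of the transcription start site (TSS). Prom2 encodes a pentaspan membrane glycoprotein of epithelial cells (chr2:127541368-127541667, minus strand). Ryr2 encodes the calcium release channel of the heart muscle sarcoplasmic reticulum (chr13:12106896-12107195, minus strand). Cbln4 encodes a secreted synaptic organizer (chr2:172043417-172043716, minus strand), Ptprt a receptor tyrosine phosphatase (chr2:162661098-162661397, minus strand) and Lsr a lipoprotein receptor of tricellular junctions (chr7:30973420-30973719, minus strand). These windows were matched by gene and not by position, since the tags are placed on mm8. Letters are in lower case and capitals mark each CpG.
Prom2: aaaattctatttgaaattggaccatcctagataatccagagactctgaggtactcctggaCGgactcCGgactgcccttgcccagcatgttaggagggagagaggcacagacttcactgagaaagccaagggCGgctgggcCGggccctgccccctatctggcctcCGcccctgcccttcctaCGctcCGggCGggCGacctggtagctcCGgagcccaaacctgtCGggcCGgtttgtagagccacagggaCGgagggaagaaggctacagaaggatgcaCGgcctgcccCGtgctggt
Ryr2: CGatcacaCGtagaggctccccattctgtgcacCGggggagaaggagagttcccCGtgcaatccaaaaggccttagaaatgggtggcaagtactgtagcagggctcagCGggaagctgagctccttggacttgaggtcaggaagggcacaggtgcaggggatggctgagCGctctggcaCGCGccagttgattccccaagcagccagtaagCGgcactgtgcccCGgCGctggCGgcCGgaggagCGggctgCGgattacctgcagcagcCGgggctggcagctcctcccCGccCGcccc
Cbln4: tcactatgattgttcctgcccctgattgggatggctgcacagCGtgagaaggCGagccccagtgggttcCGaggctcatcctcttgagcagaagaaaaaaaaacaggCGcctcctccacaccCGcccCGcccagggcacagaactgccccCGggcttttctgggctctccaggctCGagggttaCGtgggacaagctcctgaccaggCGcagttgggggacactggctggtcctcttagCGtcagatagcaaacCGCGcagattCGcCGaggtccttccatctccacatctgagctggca
Ptprt: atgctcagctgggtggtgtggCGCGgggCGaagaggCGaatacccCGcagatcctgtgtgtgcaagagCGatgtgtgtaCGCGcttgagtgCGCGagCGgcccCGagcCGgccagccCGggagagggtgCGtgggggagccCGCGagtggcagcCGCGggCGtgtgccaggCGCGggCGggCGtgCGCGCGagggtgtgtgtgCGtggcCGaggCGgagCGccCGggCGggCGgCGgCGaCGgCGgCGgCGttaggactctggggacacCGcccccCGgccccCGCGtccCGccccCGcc
Lsr: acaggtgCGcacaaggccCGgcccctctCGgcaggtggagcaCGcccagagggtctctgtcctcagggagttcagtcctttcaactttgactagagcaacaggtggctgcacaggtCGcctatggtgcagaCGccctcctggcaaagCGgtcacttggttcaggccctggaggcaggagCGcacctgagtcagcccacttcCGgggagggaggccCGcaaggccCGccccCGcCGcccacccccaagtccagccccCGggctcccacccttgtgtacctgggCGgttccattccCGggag

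The next set shows members at the upper and lower ends of the wild-type to null ratio. Nmu, which encodes the neuropeptide neuromedin U (chr5:76363728-76364027, minus strand), and Cldn3, a claudin of epithelial tight junctions (chr5:134985964-134986263, plus strand), had high ratios. Lmx1a, a LIM homeobox factor of dopaminergic neuron development (chr1:167689308-167689607, plus strand), and Dpp10, an auxiliary subunit of voltage-gated potassium channels (chr1:124045510-124045809, minus strand), had low ratios. Capitals again mark each CpG.
Nmu: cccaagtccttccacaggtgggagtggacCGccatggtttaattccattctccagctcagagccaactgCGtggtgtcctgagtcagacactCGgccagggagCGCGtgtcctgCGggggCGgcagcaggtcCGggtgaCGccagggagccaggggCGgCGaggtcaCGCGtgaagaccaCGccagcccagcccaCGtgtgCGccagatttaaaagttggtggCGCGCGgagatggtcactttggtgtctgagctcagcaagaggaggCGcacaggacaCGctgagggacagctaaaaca
Cldn3: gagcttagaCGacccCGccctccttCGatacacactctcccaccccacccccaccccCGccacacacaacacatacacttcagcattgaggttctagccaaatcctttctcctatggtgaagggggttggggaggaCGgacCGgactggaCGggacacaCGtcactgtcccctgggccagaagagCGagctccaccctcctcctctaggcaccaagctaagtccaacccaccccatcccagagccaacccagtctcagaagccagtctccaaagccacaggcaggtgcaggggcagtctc
Lmx1a: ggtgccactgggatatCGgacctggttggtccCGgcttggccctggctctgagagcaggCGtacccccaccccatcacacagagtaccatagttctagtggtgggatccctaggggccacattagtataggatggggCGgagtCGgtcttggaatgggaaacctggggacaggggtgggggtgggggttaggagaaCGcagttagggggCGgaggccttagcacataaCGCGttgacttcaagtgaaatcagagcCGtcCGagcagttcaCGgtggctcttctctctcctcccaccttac
Dpp10: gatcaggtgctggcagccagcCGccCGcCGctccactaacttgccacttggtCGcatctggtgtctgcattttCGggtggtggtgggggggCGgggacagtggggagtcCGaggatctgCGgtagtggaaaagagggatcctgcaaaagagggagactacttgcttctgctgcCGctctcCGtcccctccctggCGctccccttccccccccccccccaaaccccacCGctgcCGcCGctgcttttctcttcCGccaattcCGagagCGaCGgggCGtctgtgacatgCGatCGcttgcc

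CpG numbers in these 300 bases ran from 9 in Cldn3 to 46 in Ptprt. Nmu, with the highest ratio of all members, and Dpp10, with the lowest, both held 21 CpGs. RefSeq windows were matched, by symbol or a synonym on the same chromosome, for 337 of the 468 members, which is 72.0% and under the 80% needed for a statement about the set. The check of CpG content over all members is therefore void, and the class CpG-rich is that of the study's gene table.

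Across the 468 promoters, more uH2A tags lay within 5 kb of the TSS in wild-type than in null MEFs once the library totals were taken into account. These windows took in 22019 tags of the wild type, 0.360% of its library, and 20707 tags of the null, 0.258% of its library. Wild-type tags multiplied by 1.31, the quotient of the null and wild-type totals, gave a scaled wild-type to null ratio of 1.39 (95% Clopper-Pearson interval 1.37 to 1.42). All intervals given for tags cover counting error only, since there was 1 library per genotype. They count repeated tags as separate and are too narrow where such tags are copies. Tags that repeated a position and strand already seen made up 33.0% of the wild-type and 34.5% of the null library. With 1 tag kept per position and strand the ratio was 1.33 (1.30 to 1.36).

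Every one of the 468 members had the 20 pooled tags asked for, so none was left out. A single promoter held between 14 and 124 wild-type tags, with a median of 46, and between 16 and 95 null tags, with a median of 44. The scaled ratio of single members had a median of 1.36, with quartiles at 1.08 and 1.69, and ran from 0.483 to 3.50. It was above 1 at 384 members, or 82.1%, beside 66.7% of all supplied promoters and 82.1% and 81.2% of the other 2 groups of H3K27me3-only promoters. The ratio of 1999 supplied promoters had a median of 1.18, and that of 237476 windows of 10 kb across the genome had a median of 0.9498.

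A ratio of 1.5 or more was found at 182 members, which is 38.9%, beside 26.3% of all supplied promoters and 15.6% of the genome windows. A ratio of 2 or more was found at 57 members (12.2%), beside 7.45% of supplied promoters. A ratio of 1/1.5 or less was found at 13 members, or 2.78%, beside 8.45% of all supplied promoters and 22.8% of the genome windows. Ratios whose interval excluded 1 on the upper side were found at 171 members (36.5%), beside 22.9% of supplied promoters and 9.90% of windows, and on the lower side at 5 members (1.07%), beside 4.90% of supplied promoters. With 1 tag per position and strand the upper count was 98 members (20.9%), beside 11.8% of supplied promoters. Counted the same way, 153 members reached 1.5, beside 20.8% of supplied promoters, and 131 of them were among the 182. Over all supplied promoters 415 reached 1.5 this way, and 351 of them were among the 525 that did so with all tags. The interval of 374 members (79.9%) held the ratio of 1.39 found for all members together, and 76.9% of the intervals of all supplied promoters held their joint ratio.

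**Figure D1:**
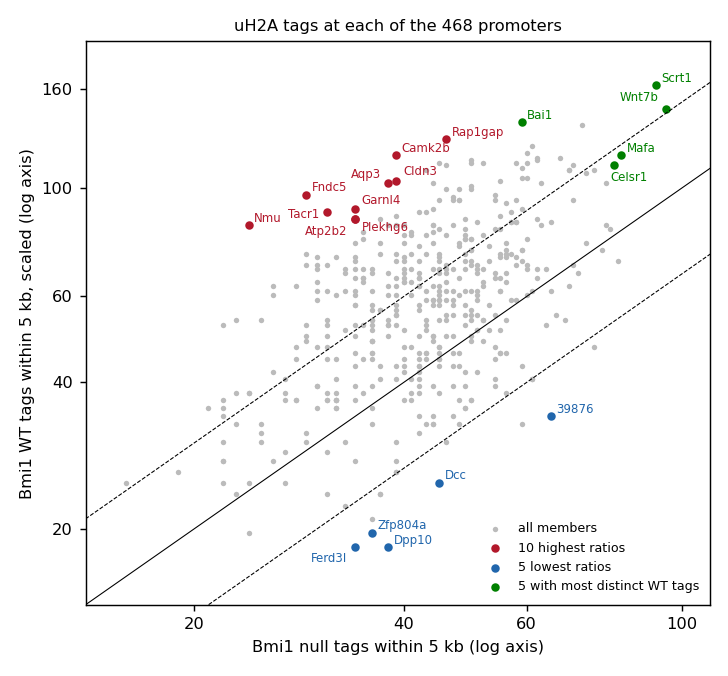
Scaled wild-type tags against null tags within 5 kb of the TSS for each of the 468 promoters, on log axes, with lines at ratios of 1 (solid) and at 1.5 and 1/1.5 (dashed). Most points lie above the solid line, the 10 highest ratios (red) start at 24 null tags in Nmu, and the 5 promoters with the most distinct wild-type tags (green) are also high in null tags.

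The 10 highest ratios included 1 member each of the neuropeptide, receptor and epithelial lists, Nmu, Tacr1 and Cldn3, and 7 members on no list. Since these genes were chosen for their ratios, their values and intervals are a description. Nmu had 64 wild-type tags against 24 null tags, a ratio of 3.50 (2.16 to 5.85). Fndc5, which encodes the precursor of irisin, had 74 and 29 tags, a ratio of 3.35 (2.15 to 5.33). Camk2b, a subunit of the calcium/calmodulin-dependent kinase of synapses, had 89 and 39 tags and a ratio of 2.99 (2.03 to 4.48). Of the Nmu tags, 34 wild-type and 9 null tags were between -5 and -1 kb. Fndc5 had 36 and 13 tags between +1 and +5 kb, 25 and 14 upstream and 13 and 2 within 1 kb of the TSS. At Camk2b 48 and 18 tags were downstream and 31 and 11 upstream, while the 2 kb around the TSS held 10 tags in each library. The ratio of Camk2b fell to 1.31 when only the 2 kb on either side were counted.

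Tacr1, the receptor of substance P, had 68 wild-type and 31 null tags (ratio 2.88, 1.86 to 4.55), and 30 and 10 of them lay within 1 kb of the TSS. Rap1gap, a GTPase-activating protein of Rap1, had 96 and 46 tags (ratio 2.74, 1.91 to 3.98), with 51 wild-type tags against 12 null tags upstream. The related gene Garnl4 had 69 and 34 tags (ratio 2.66, 1.74 to 4.14). Its ratio depended on repeated tags more than that of any other gene named for a high ratio, since it was 1.71 with 1 tag per position and strand, and it was 4.04 within 2 kb of the TSS. Aqp3, a water and glycerol channel of epithelia, had 78 and 38 tags (ratio 2.69, 1.80 to 4.08), of which 28 and 7 were within 1 kb of the TSS. Cldn3 had 79 and 39 tags (ratio 2.66, 1.79 to 4.01). Plekhg6, a guanine nucleotide exchange factor, and Atp2b2, a plasma membrane calcium pump, each had 66 and 34 tags (ratio 2.55, 1.66 to 3.97). The intervals of these 10 genes overlapped one another.

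The 5 members with the lowest ratios were Dpp10, 39876, Ferd3l, Zfp804a and Dcc, again chosen for their values. Dpp10 had 14 wild-type and 38 null tags (ratio 0.483, 0.242 to 0.912), and none of the 14 lay between +1 and +5 kb, where the null library had 18. A promoter whose symbol is given as the number 39876 in the gene table had 26 and 65 tags (ratio 0.525, 0.319 to 0.839), with 5 against 39 upstream. Ferd3l, a basic helix-loop-helix factor, had 14 and 34 tags (ratio 0.540, 0.268 to 1.03). Its null excess was upstream, with 2 against 22 tags, and counting only 2 kb on each side gave a ratio of 1.48. Zfp804a, a zinc finger gene, had 15 and 36 tags (ratio 0.546, 0.278 to 1.02), and Dcc, the netrin receptor of growing axons, had 19 and 45 (ratio 0.554, 0.306 to 0.966). The ratio of Dcc was 0.838 with 1 tag per position and strand and 0.902 within 2 kb of the TSS. With 1 tag per position and strand the ratio was 0.641 at Dpp10, from 9 and 18 tags. It was then 0.658 at 39876, from 19 and 37 tags, 0.754 at Ferd3l and 0.733 at Zfp804a. The intervals of Ferd3l and Zfp804a included 1, so at this depth a difference was not detectable there. None of these 5 promoters overlapped a deposited peak within 5 kb.

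The promoters with the most distinct wild-type tags were not those with the highest ratios. No input library was used, so a high tag number is not by itself a measure of uH2A. The 5 members with the most wild-type tags at distinct positions and strands were Scrt1, a zinc finger repressor of neurons, Wnt7b, Bai1, Mafa and Celsr1. All 5 lie on chromosome 15. With scaling per chromosome their ratios were 1.63 in Scrt1, 1.41 in Wnt7b, 2.13 in Bai1, 1.31 in Mafa and 1.28 in Celsr1. Each was lower than with scaling by library totals, so this chromosome as a whole held a larger share of the wild-type than of the null tags. Whether tags of both libraries were more numerous per base along it was not tested. Scrt1 had 124 wild-type and 92 null tags (ratio 1.77, 1.34 to 2.34), and Wnt7b, a secreted Wnt ligand, had 111 and 95 (ratio 1.53, 1.15 to 2.04). Mafa, a factor that activates insulin transcription, had 89 and 82 tags (ratio 1.42, 1.04 to 1.95). Celsr1, a planar cell polarity cadherin, had 85 and 80 (ratio 1.39, 1.01 to 1.92). Bai1, an adhesion receptor of the brain, had 104 and 59 tags (ratio 2.31, 1.66 to 3.24), and its interval overlapped those of the other 4. The null library at 4 of these promoters, all but Bai1, held 80 tags or more, against a median of 44. Over all members the tag numbers of both libraries rose together, with a Spearman correlation of 0.470 across the 468 promoters, or 0.552 with 1 tag per position and strand. Both libraries share the mapping of tags and the base composition and chromosome of each promoter, so this correlation is a description only.

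Along the promoter, the excess was highest at and just downstream of the TSS and extended over the whole 10 kb. The 200 bp just downstream of the TSS held 793 wild-type and 584 null tags, or 2.22 scaled wild-type and 1.25 null tags per promoter, a ratio of 1.78 (1.60 to 1.99). The null library was highest in the bin from +400 bp, with 1.29 tags per promoter. Within 1 kb of the TSS the subtracted density, scaled wild-type minus null tags per 200 bp bin, was 0.586 ± 0.039 (s.e.m. across the 468 promoters, which are not replicates). It was 0.355 ± 0.029 between +1 and +5 kb and 0.225 ± 0.025 between -5 and -1 kb. With 1 tag per position and strand these densities were 0.356, 0.206 and 0.132, and with negative bins set to 0 they were 1.15, 0.891 and 0.743. In tags, these stretches held 5960 wild-type and 5075 null tags (ratio 1.54, 1.48 to 1.60), 8816 and 8240 tags (1.40, 1.36 to 1.45) and 7243 and 7392 tags (1.29, 1.24 to 1.33). The downstream ratio was 1.09 times the upstream ratio (1.04 to 1.14).

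The 2 kb around the TSS make up 20% of the window and held 33.6% of the wild-type excess, while the stretch from +1 to +5 kb held 40.7% of it. More scaled wild-type than null tags were found within 1 kb of the TSS at 351 members (75%), beside 68.7% of all supplied promoters, downstream at 327 (69.9%), beside 57.9%, and upstream at 305 (65.2%), beside 53.2%. All 3 stretches were higher at 162 members (34.6%), beside 23.6% of all supplied promoters, and none was higher at 15 (3.21%), beside 7.5%. The share with all 3 higher was 32.8% at the developmental transcription factors, 34.7% at the channel, receptor and adhesion genes and 18.6% at H3K4me3-only promoters.

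**Figure D2:**
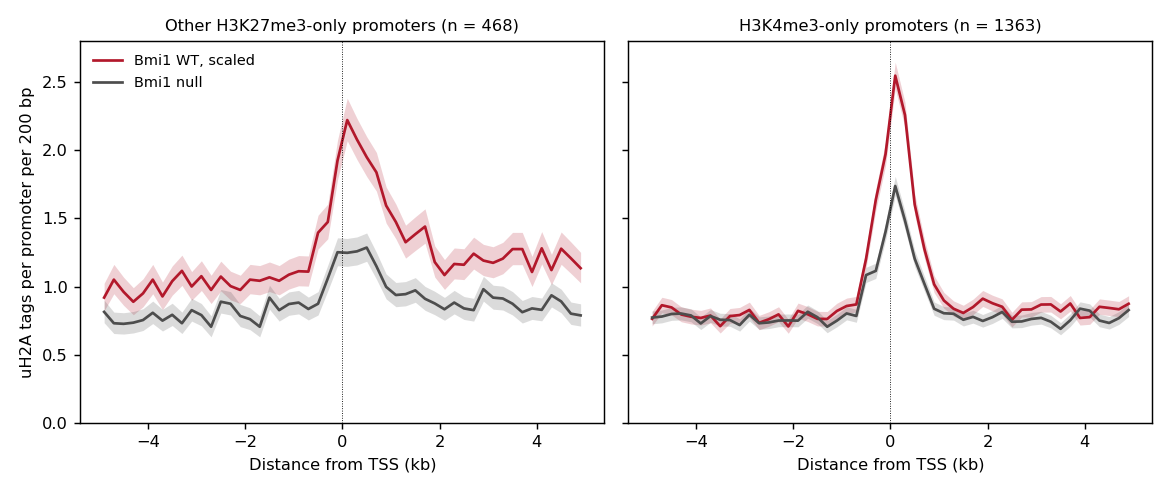
uH2A tags per promoter in 200 bp bins, against distance from the TSS in the direction of transcription, for the 468 members (left) and the 1363 H3K4me3-only promoters (right), with scaled wild-type in red, null in grey and shading for the 95% Poisson interval. At the members the wild-type line stays above the null line across the window and peaks at 2.22. At H3K4me3-only promoters the lines lie closer beyond 1 kb, with ratios of 1.03 upstream and 1.09 downstream.

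A comparison that needs no scaling between libraries is that of the TSS with its own surroundings. In the wild-type library the tag density within 1 kb of the TSS was 1.52 times (1.47 to 1.57) that at 3 to 5 kb, from 5960 and 7837 tags. In the null library it was 1.33 times (1.29 to 1.38), from 5075 and 7615 tags. Tags thus gathered at the TSS in both libraries, and more so in the wild type. With 1 tag per position and strand these values were 1.62 (1.56 to 1.69) and 1.47 (1.41 to 1.54).

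The members differed most from the H3K4me3-only promoters beside the TSS. At H3K4me3-only promoters the scaled ratio was 1.13 (1.12 to 1.15) within 5 kb, 1.33 (1.30 to 1.36) within 1 kb, 1.09 (1.07 to 1.11) from +1 to +5 kb and 1.03 (1.01 to 1.05) from -5 to -1 kb. The member ratio was 1.16 times as high (1.11 to 1.21) within 1 kb, 1.29 times (1.24 to 1.33) downstream and 1.25 times (1.20 to 1.30) upstream, quotients that do not depend on the scale factor. Their wild-type core to flank ratio was the lower, at 1.52 against 1.87 (1.83 to 1.92), with 1.10 scaled wild-type tags per bin beyond 3 kb in the members against 0.813. The null flanks held 0.814 and 0.769.

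Within the H3K27me3-only class the members were set beside the other promoters. The ratio within 5 kb was 1.38 (1.31 to 1.45) at the developmental transcription factors and 1.33 (1.27 to 1.39) at the channel, receptor and adhesion genes. The quotient of the member ratio and the transcription factor ratio was 1.01 (0.961 to 1.07). Against the channel genes it was 1.05 (1.002 to 1.10) within 5 kb, 0.918 (0.839 to 1.005) within 1 kb and 1.13 (1.05 to 1.22) upstream. The ratio within 1 kb over that beyond 3 kb was 1.14 (1.09 to 1.20) in members, 1.004 (0.885 to 1.14) in transcription factors and 1.38 (1.24 to 1.54) in channel genes. The share of promoters at 1.5 or more was 37.3% and 35.6% in these classes.

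The surroundings of the members also carried more wild-type tags. Counted on both sides, the scaled ratio was 1.27 (1.25 to 1.30) at 5 to 10 kb from the TSS, 1.26 (1.25 to 1.28) at 10 to 25 kb, 1.27 (1.26 to 1.28) at 25 to 50 kb and 1.22 (1.21 to 1.23) at 50 to 100 kb. Around H3K4me3-only promoters it was lowest at 1 to 5 kb, with 1.06 (1.05 to 1.08), and was 1.130 (1.126 to 1.135) at 50 to 100 kb. Set against the ratio at 50 to 100 kb, the members were 1.26 times higher (1.21 to 1.31) within 1 kb and 1.10 times higher (1.08 to 1.13) at 1 to 5 kb. The H3K4me3-only promoters were 1.17 times higher (1.15 to 1.20) within 1 kb but 0.938 times as high (0.924 to 0.952) at 1 to 5 kb. A part of the member ratio was therefore shared by the surrounding 100 kb, and what this wider difference between the libraries comes from was not tested.

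**Figure D3:**
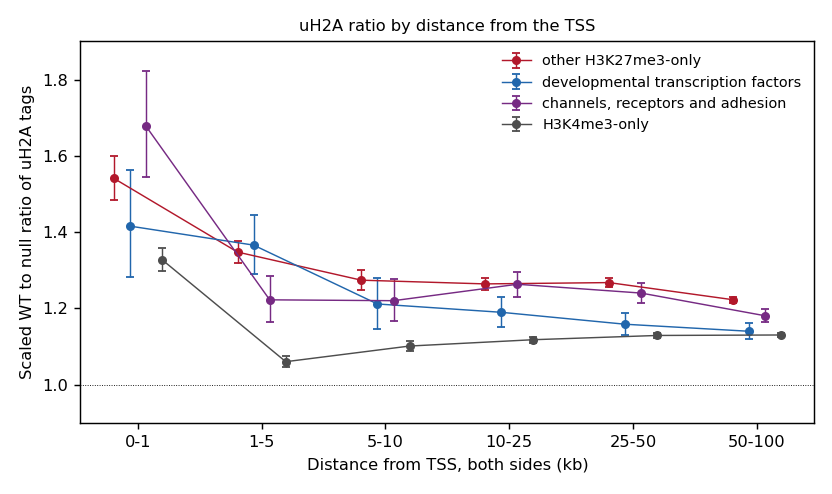
Scaled wild-type to null ratio of uH2A tags in 6 ranges of distance from the TSS for the 4 promoter classes, with 95% Clopper-Pearson intervals. The members (red) fall from 1.54 within 1 kb to 1.22 at 50 to 100 kb and lie above H3K4me3-only promoters (grey) in each range.

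By function, 189 members were placed on 10 lists and 279 on none. The lists were drawn up with earlier results of these data known, so their order and shares are a description only. Each list had a summed ratio above 1, and the member ratio of 1.39 lay inside the interval of 8 of the 10. The median ratio of single promoters ran from 1.26 in blood and immune genes to 1.68 in epithelial genes, beside 1.36 over all members and 1.18 over all supplied promoters. The share at 1.5 or more ran from 15.4% in neuronal adhesion and guidance genes to 75% in epithelial genes, beside 26.3% of all supplied promoters. In synaptic and in blood and immune genes it was 25%, near that background, and in homeobox genes 31.8%. The largest ratio was that of epithelial junction and barrier genes. Their 16 promoters held 804 wild-type and 629 null tags, a ratio of 1.68 (1.51 to 1.86), and 12 of the 16 reached 1.5, or 8 with 1 tag per position and strand. Cldn3 was the highest. Lsr had 55 and 32 tags (ratio 2.25, 1.43 to 3.60, but 3.70 within 2 kb) and Prom2 had 76 and 50 (ratio 1.99, 1.38 to 2.91). Dsc2, a desmosomal cadherin, was the lowest with 26 and 44 tags (ratio 0.775, 0.458 to 1.29, but 1.11 within 2 kb of the TSS). Deposited peaks lay within 5 kb of 6 of these 16 promoters (37.5%), beside 11.8% of all supplied promoters, and the share was 33.3% (4 of 12) in synaptic genes and between 7.69% and 22.7% in the other 8 lists.

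Neuronal adhesion and guidance genes had the smallest ratio. Their 13 promoters held 470 wild-type and 544 null tags, a ratio of 1.13 (0.999 to 1.28), and 2 of the 13 reached 1.5, with a median of 1.28. Reln, the secreted reelin protein that guides migrating neurons, was the highest with 38 and 29 tags (ratio 1.72, 1.03 to 2.89), and Dcc was the lowest. Within 1 kb of the TSS the ratio of the list was 1.56 (1.22 to 1.99), which was 1.56 times (1.18 to 2.05) its ratio at 1 to 5 kb. The 12 promoters of synaptic release and vesicle proteins had 502 and 520 tags, a ratio of 1.27 (1.12 to 1.43) within 5 kb and 1.08 (0.842 to 1.38) within 1 kb. For them the quotient of the ratios within 1 kb and at 1 to 5 kb was 0.806 (0.609 to 1.07), so a difference was not detectable at this depth. Their median was 1.40, and 3 of them reached 1.5. In that list Bsn, a scaffold of the presynaptic active zone, had 59 and 40 tags (ratio 1.93, 1.27 to 2.97), and Snap25, a SNARE protein of vesicle fusion, had 18 and 37 (ratio 0.638, 0.342 to 1.15).

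Secreted developmental signals and their modulators had 1796 wild-type and 1593 null tags over 33 promoters, a ratio of 1.48 (1.38 to 1.58). Their median was 1.37, and 14 were at 1.5 or more (42.4%, beside 26.3% of all supplied promoters). Wnt3, a Wnt ligand, led them with 86 and 45 tags (ratio 2.51, 1.73 to 3.68), of which 46 and 13 lay between +1 and +5 kb. Vwc2, a secreted BMP antagonist, was the lowest with 26 and 42 (ratio 0.812, 0.478 to 1.36). Neuropeptides and peptide hormones had 867 and 781 tags over 18 promoters, a ratio of 1.46 (1.32 to 1.61), with a median of 1.40 and 8 at 1.5 or more (44.4%). Nmu was their highest member, and Sct, which encodes the gut hormone secretin, was the lowest with 30 and 54 tags (ratio 0.729, 0.450 to 1.16, but 1.05 within 2 kb). Peptide, amine and lipid receptors had 963 and 881 tags over 22 promoters (ratio 1.43, 1.31 to 1.57), with a median of 1.34 and 10 at 1.5 or more (45.5%). They ran from Tacr1 down to Crhr1, the receptor of corticotropin-releasing hormone, with 41 and 68 tags (ratio 0.791, 0.523 to 1.18, but 1.17 within 2 kb). The intervals of the hormone and receptor lists overlapped, and no test was made between them.

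The transcription factors formed 2 lists, and the interval of each held the member ratio. The 34 promoters of factors without a homeobox had 1719 and 1509 tags (ratio 1.49, 1.39 to 1.60), with a median of 1.59 and 19 at 1.5 or more (55.9%, beside 26.3% of all supplied promoters). Npas1, a basic helix-loop-helix PAS factor of neurons, was the highest with 48 and 26 tags (ratio 2.42, 1.47 to 4.07), and Ferd3l was the lowest. This list moved with repeated tags. With 1 tag per position and strand its ratio was 1.35, and 11 of the 34 were at 1.5 or more, beside 20.8% of all supplied promoters. The 22 homeobox promoters had 1056 and 1043 tags (ratio 1.33, 1.22 to 1.45), with a median of 1.34 and 7 at 1.5 or more. Cdx1, a caudal-type factor of the gut, had 86 and 50 tags (ratio 2.26, 1.57 to 3.26, but 4.92 within 2 kb of the TSS). Lmx1a had 25 and 59 (ratio 0.556, 0.334 to 0.901), and it was among the 5 members with an interval below 1. With 1 tag per position and strand Lmx1a had 19 and 41 tags (ratio 0.594).

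Muscle sarcomere and excitation-contraction genes, with 306 and 281 tags over 7 promoters, had a ratio of 1.43 (1.21 to 1.69) within 5 kb but 2.43 (1.72 to 3.45) within 1 kb, the highest core ratio of any list, and 4 of the 7 reached 1.5 within 5 kb, or 2 with 1 tag per position and strand, with a median of 1.52. Ryr2 had 47 and 33 tags (ratio 1.87, 1.17 to 3.01), and 16 and 5 of them were within 1 kb. Tnni3, the troponin I of heart muscle, was the lowest of the list with 34 and 43 tags and a ratio of 1.04 (0.641 to 1.66), which was 0.983 with 1 tag per position and strand and 0.925 with scaling per chromosome. Blood and immune genes had 548 and 575 tags over 12 promoters (ratio 1.25, 1.11 to 1.41), and 3 reached 1.5 (25%, beside 26.3% of all supplied promoters). Alox15, a lipoxygenase of macrophages and eosinophils, had 46 and 26 tags (ratio 2.32, 1.40 to 3.91, but 4.43 within 2 kb). Skap1, an adaptor of T cell receptor signalling, had 32 and 51 (ratio 0.823, 0.512 to 1.31). The 279 members on no list had a ratio of 1.38 (1.35 to 1.41). Of these, 100 reached 1.5 (35.8%, beside 26.3% of all supplied promoters). No list was tested against another, and the lists hold between 7 and 34 promoters.

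**Figure D4:**
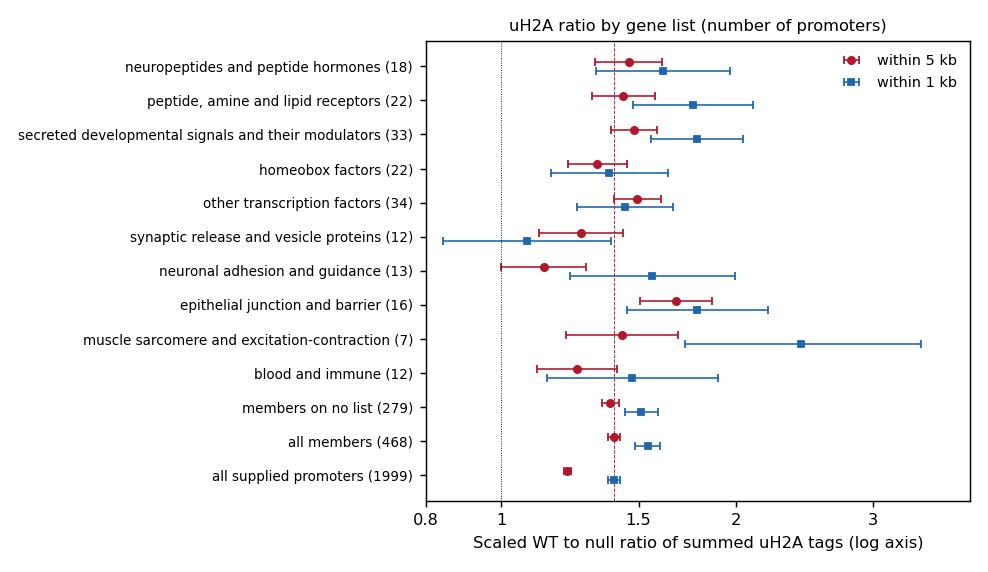
Scaled wild-type to null ratio of summed uH2A tags for each gene list, with its number of promoters, within 5 kb (red circles) and within 1 kb (blue squares) of the TSS, with 95% Clopper-Pearson intervals on a log axis. The dashed line is the ratio of 1.39 of all members. Epithelial junction and barrier genes lie highest within 5 kb at 1.68 and muscle genes within 1 kb at 2.43.

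Of the deposited peaks, which the authors called with wild-type tags as input and null tags as background, 78 overlapped the windows of 74 members. That is 15.8% of members (12.6% to 19.4%), beside 11.8% of all supplied promoters. Peaks with a deposited p-value of 1e-07 or less lay at 41 members (8.76%), beside 6.05% of supplied promoters. Within 1 kb of the TSS, 24 members had a peak, or 5.13% (3.31% to 7.53%), beside 4.15% of all supplied promoters. Most members therefore had no peak, although 82.1% had a ratio above 1. The peaks were small, with a median of 15 wild-type tags, 9 distinct positions and strands and 2 null tags. The difference between libraries inside a peak was a condition of its call and is given here as a description only. Of the 79 pairs of a member and a peak, 43 had the midpoint downstream of the TSS and 36 had it upstream, and 14 peaks spanned the TSS.

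The best covered peak near a start was that of Cdx1, which spanned the TSS over 2537 bp with 39 wild-type tags, 27 of them distinct, and 8 null tags. Prom2 had a peak of 2329 bp centred 2136 bp downstream, with 35 wild-type tags (24 distinct) and 4 null tags. The peak of Mpped1, a metallophosphoesterase domain gene of the brain, was the widest of those named at 3152 bp, with 29 wild-type (22 distinct) and 6 null tags. Ryr2 had 27 (17 distinct) and 6 tags in its peak, and Sncb, which encodes beta-synuclein, had 25 (17 distinct) and 5. Cck, the gene of cholecystokinin, had its peak centred 1166 bp upstream, with 24 wild-type (16 distinct) and 7 null tags. The peaks of Cbln4 and Lsr were also centred upstream. The peak of Ptprt held 19 (16 distinct) and 3 tags, and that of Rax, a homeobox factor of the eye field, held 24 (14 distinct) and 6.

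These genes were named for a peak that reached within 1 kb of the start, and a wild-type excess was a condition of each peak, so their values are a description and support no difference. The peak of Prom2 lay mostly beyond 1 kb, and its 2 kb around the TSS held 17 and 19 tags (ratio 1.17, 0.573 to 2.38). Cbln4 had 47 wild-type and 43 null tags within 5 kb, a ratio of 1.43 (0.928 to 2.22, but 2.54 within 2 kb), and 29 and 2 tags within 1 kb. Its peak held 29 wild-type tags but 15 distinct ones. Ptprt likewise had 42 and 39 tags within 5 kb (ratio 1.41, 0.892 to 2.24, but 4.43 within 2 kb) and 13 and 2 within 1 kb. Lsr had 21 and 5 tags within 1 kb, while its downstream stretch held 12 and 16. Cck had 12 and 10 tags within 1 kb, a ratio of 1.57 (0.623 to 4.07), and its ratio within 5 kb was 1.49 (0.931 to 2.41). Over the whole window Rax with 61 and 41 tags (ratio 1.95, 1.29 to 2.97, but 3.93 within 2 kb), Sncb with 46 and 34 (1.77, 1.11 to 2.85) and Mpped1 with 65 and 57 (1.496, 1.03 to 2.17) had intervals above 1.

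**Figure D5:**
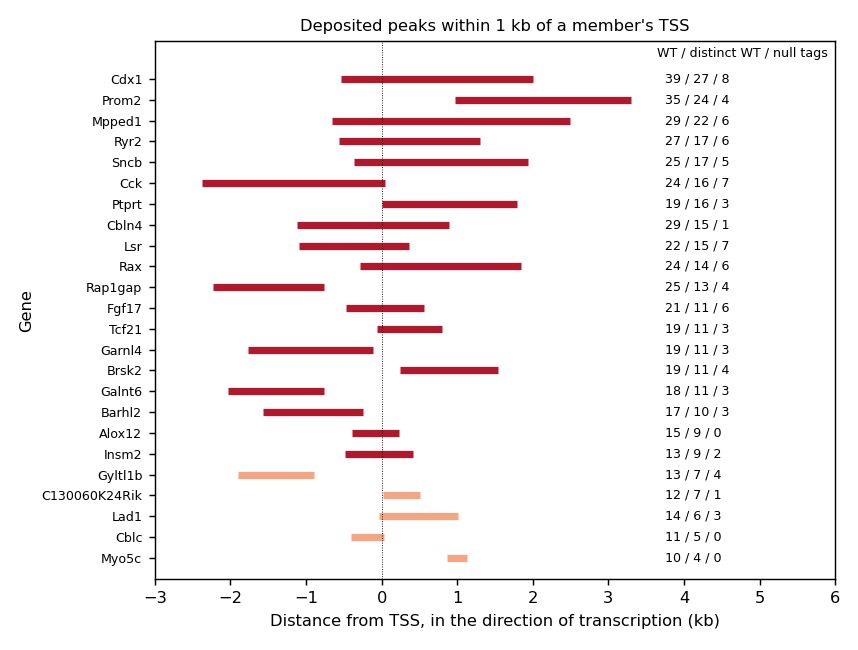
Extent of the 24 deposited peaks within 1 kb of a member's TSS, by distance from the TSS in the direction of transcription, ordered by distinct wild-type tags, with the wild-type, distinct wild-type and null tags of each peak at the right. Peaks with 9 or more distinct wild-type tags are dark red and the others are light. Cdx1 leads with 27 distinct tags, and peaks lie on both sides of the TSS.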

How the data were processed

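uH2A ChIP-Seq of 1 Bmi1 wild-type and 1 Bmi1 null MEF line was analysed. The authors mapped 25 bp tags to mm8 and deposited each uniquely placed tag as 1 line, unnormalized. The deposited peak list gives a count of wild-type tags and the authors' p-value per peak; the list's fold column was not used. The members and lists were chosen with earlier results of these data known.

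A tag was counted at the lower end of its alignment. Wild-type counts were scaled by library totals. Ratios have exact Clopper-Pearson intervals, quotients of ratios have intervals from a normal approximation on the log scale, and no test was made. Peaks counted when 1 bp overlapped.

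Genes were named by rule: the 10 highest and 5 lowest ratios among members with 20 pooled tags, the 10 peaks within 1 kb of a TSS with the most distinct wild-type tags, the 5 members with the most distinct wild-type tags, and the highest and lowest of each list. Alternatives were another tag placement, 1 tag per position and strand, scaling per chromosome, leaving out the 13 members whose window overlaps another promoter's, 2 kb windows, negative bins set to 0, other thresholds and peak midpoints. The interval code was tested on simulated independent Poisson counts. These lack the repeated tags of the libraries, so the test does not cover their effect on the intervals. Python 3.11.15, numpy 2.4.6, pandas 2.3.3, scipy 1.17.1 and matplotlib 3.10.9 were used. Bmi1 itself was not analysed here.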

Additional observations from a re-analysis of the deposited data

How the results depend on the processing

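All 55 ratios of lists and of members on no list stayed above 1. Of 172 ratios of single named genes, 163 stayed inside the interval of the reported value and 6, at 5 genes, crossed 1. None of these 5 genes had an interval that excluded 1. Within 2 kb of the TSS Ferd3l went from 0.540 to 1.48, Crhr1 from 0.791 to 1.17, Dsc2 from 0.775 to 1.11 and Sct from 0.729 to 1.05, and Tnni3 went from 1.04 to 0.983 with 1 tag per position and strand and to 0.925 with scaling per chromosome. Ratios within 2 kb also moved by over 1.5 times at Alox15 (4.43), Cbln4 (2.54), Cdx1 (4.92), Garnl4 (4.04), Lsr (3.70), Ptprt (4.43), Rax (3.93), Camk2b (1.31) and Dcc (0.902). Tag placement and leaving out shared windows moved none of the main values out of its interval. With 1 tag per position and strand, the ratio over members was 1.33, the subtracted density 0.356 within 1 kb, 0.206 downstream and 0.132 upstream, and the core to flank ratio 1.62 in the wild-type and 1.47 in the null library; the ratio of other transcription factors was 1.35 and that of members on no list 1.32. The densities then rest on fewer tags, and the ratio within 1 kb also fell, from 1.54 to 1.44. With negative bins set to 0, a step that can only raise a mean, the densities were 1.15, 0.891 and 0.743. Within 2 kb of the TSS the ratio was 1.47 over members, 1.46 at homeobox factors, 1.08 at synaptic release and vesicle proteins, 1.42 at neuronal adhesion and guidance genes, 2.12 at muscle genes, 1.42 at blood and immune genes and 1.46 at members on no list. Scaling per chromosome gave 1.35 for members on no list. At 2-fold, 57 members (12.2%, beside 7.45% of supplied promoters) were called in place of 182, and at a deposited p-value of 1e-07 or less 41 members (8.76%, beside 6.05%) had a peak within 5 kb in place of 74. The cause of the other shifts was not tested. With a median of 46 and 44 tags per promoter, single ratios are imprecise.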
